A study of Solanum lycopersicum with 12 samples.

Results

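The plants described here grew from tomato seeds coated with spores of amdS122, and they are set against plants from untreated seeds, called control. amdS122 is a transformant of the biocontrol fungus Trichoderma harzianum T34 that carries 2 copies of the Aspergillus nidulans amdS cassette, in which a constitutive gpdA promoter drives an acetamidase. The other groups of the study were plants treated with amdS6, a transformant with 1 copy, and with the parent strain T34. Members were taken by the group named in the labels, which gave 3 amdS122 arrays and 3 control arrays, 6 of the 12 arrays in all, and each array was read at the 10038 tomato probe sets. All plants were of the cultivar Marmande, grew in autoclaved soil in a greenhouse, and gave their aerial parts at an age of 3 weeks, with 5 plants pooled per array. Each transformant is a single monosporic isolate, so its insertion sites cannot be told apart from the copy number. The sources give 2 different spore densities for the coating, and which one applied was not settled here.

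Acetamidase releases ammonium from acetamide, and a fungus that makes more of it can use amides as a nitrogen source. Plants join nitrogen to carbon skeletons: nitrate reductase turns nitrate into nitrite, and phosphoenolpyruvate carboxylase (PEPC), which its kinase (PPCK) makes less sensitive to malate, refills the organic acids that nitrogen assimilation draws on. Plants also perceive fungi through membrane receptors. Calcium signals, protein kinases, WRKY and ethylene response factors and then defense proteins follow. The arrays therefore bear on carbon and nitrogen metabolism as well as on the defense apparatus of the shoot.

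The deposited value of a probe set is a log2 signal, so that a difference of 1 is a 2-fold change, and all folds below are ratios on that scale. A probe set was called when its adjusted p was under 0.1 and its fold change at least 2. The labels name the tissue as leaves and its source as aerial parts. The 5 leaf markers (CAB4, CAB5, CAB6A, PSBO and LOC543978) had a median signal of 14.13 in amdS122 and 14.12 in control plants, near the highest mean of any probe set (14.72), and none of them passed the test. The 4 root markers matched on the array (TIP, PT1, FRO1 and PT2) were lower in amdS122 by 0.36 to 0.89 on the log2 scale. All 4 passed the adjusted p, beside 22.0% of all probe sets passing downwards, and none was called. The part of these markers in the results was not tested. In such mixed tissue, fewer cells of a type and less RNA per cell cannot be told apart. Of 5 shoot meristem markers, 1 was called (T6, given below). The difference between 3′ and 5′ signal of the control transcripts actin, ef1a and gapdh, a sign of RNA length and amplification, averaged 2.85 ± 0.13 in amdS122 and 3.37 ± 0.07 in control arrays (SD, n = 3 each). The groups did not overlap, and the difference gave the smallest p that 3 arrays against 3 allow (exact permutation test, two-sided, p = 0.1). Poly-A spikes, added before labelling, averaged 8.14 ± 0.04 in amdS122 and 7.69 ± 0.16 in control arrays. The part of either measure in the results below was not tested. With the 3′ to 5′ difference as a covariate 263 probe sets were called, 175 of them among those called without it, and the root marker PT1 was then called at −1.12 (adjusted p = 0.028).

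In amdS122 plants 215 probe sets were called against control, which was 2.14% of those tested. A total of 44 were higher (0.438%) and 171 were lower (1.70%). The falls were also deeper: 54 probe sets were lower by at least 4-fold and 18 by at least 8-fold, whereas 2 were higher by at least 4-fold. The median change was 2.204-fold over the 44 probe sets called higher and 3.06-fold over the 171 called lower. Smaller changes were far more frequent, and in the opposite balance. At the adjusted p alone, 3014 probe sets were higher (30%) and 2210 lower (22.0%), so that 52.0% of the array passed. Replicates differed little, with a median SD of 0.07 in either group. Each array held a pool of plants that the labels call a biological replicate, and the p-values measure the spread between these arrays.

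**Figure D1:**
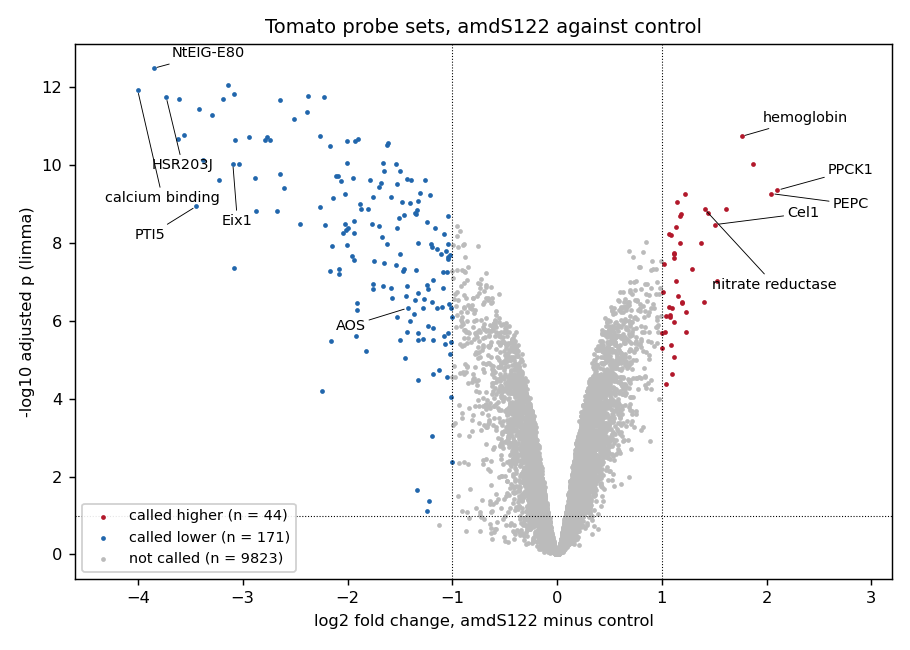
Each point is 1 of the 10038 tomato probe sets, with the log2 fold change (amdS122 minus control) on the x axis and −log10 of the limma adjusted p on the y axis, and dotted lines mark the limits for a call. The 171 probe sets called lower reach −4.00, while the 44 called higher end at 2.102.

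Probe sets called lower had intermediate to high signals in control plants, with a median of 6.31 in amdS122 arrays and 8.57 in control arrays. Those called higher had medians of 9.07 in amdS122 and 7.21 in control arrays. Among the 2510 probe sets of lowest mean signal there were 15 of the 171 lower and 0 of the 44 higher calls. Arrays of amdS122 and control did not overlap for 44 of 44 probe sets called higher and for 168 of 171 called lower. Over all probe sets tested the arrays of the groups did not overlap for 53.8%, with amdS122 above control for 31.0% and below it for 22.8%. The 3 called probe sets with overlapping arrays have no name here.

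The 4 largest rises among all probe sets were those of a PEPC kinase, of PEPC on both of its probe sets and of a hemoglobin, and nitrate reductase rose as well. PPCK1 had signals of 8.90, 8.79 and 8.85 in amdS122 plants, against 6.72, 6.75 and 6.76 in control plants. The 3 amdS122 arrays all lay above the control arrays, and the rise was 4.29-fold (log2 2.102, SE 0.07, adjusted p = 4.5e-10). The array annotation names this probe set as a PEPC kinase, whereas the tables of the study describe it as phosphoenolpyruvate carboxykinase, the enzyme that forms phosphoenolpyruvate in gluconeogenesis. The name of the array annotation is used here. PPCK2, a second PEPC kinase, gave 7.40, 7.58 and 7.41 in amdS122 and 6.18, 6.38 and 6.59 in control plants, which was a 2.12-fold rise (adjusted p = 4.3e-06). PPCK2 was at a log2 change of 0.98 without control replicate 1, and at 0.67 with the 3′ to 5′ difference as a covariate, and was then not called.

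PEPC itself was read by 2 probe sets, which share a cluster of sequences and are not independent measurements. The dimmer one had 9.19, 9.40 and 9.27 in amdS122 plants, against 7.14, 7.26 and 7.32 in control plants. The brighter one had 10.72, 10.88 and 10.84 in amdS122 plants, against 8.90, 8.96 and 8.96 in control plants. Both sets of arrays were separated by more than 1.7 log2 units, and the rise was 4.12-fold on the dimmer probe set (adjusted p = 5.5e-10) and 3.66-fold on the brighter one (adjusted p = 9.3e-11).

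The non-symbiotic hemoglobin, of a family known to scavenge nitric oxide, rose 3.39-fold. Its signals were 10.24, 10.25 and 10.28 in amdS122 plants, against 8.45, 8.53 and 8.53 in control plants (log2 1.76, SE 0.04, adjusted p = 1.9e-11). A second hemoglobin on the array, GLB2, passed the adjusted p with a log2 change of 0.31 and was not called.

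Nitrate reductase catalyses the first and often limiting step from nitrate to ammonium. It gave 12.04, 11.97 and 12.02 in amdS122 plants, against 10.67, 10.62 and 10.51 in control plants. The arrays did not overlap and the rise was 2.65-fold (log2 1.41, SE 0.05, adjusted p = 1.4e-09). Few other genes of nitrate and ammonium assimilation could be named. Of 5 probe sets with a symbol in this list, 0 were called, 2 passed the adjusted p upwards and 1 downwards, and their median log2 change was 0.01, beside 0.02 over all probe sets. AMT1-2, an ammonium transporter, was at 0.25, GS2, the plastid glutamine synthetase, at 0.01 and gdh1, a glutamate dehydrogenase, at −0.36. Of 8 malic enzyme and malate dehydrogenase probe sets 0 were called, with the malic enzyme ME2 at −0.63 and the glyoxysomal enzyme gMDH at 0.23.

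The study measured PPCK1 (as phosphoenolpyruvate carboxykinase), nitrate reductase and, among the falls, the phospholipase PLDb1 by real-time PCR as well, and those PCR values were not analysed here. Primers of the carboxykinase (PCK), nitrate reductase (NR) and phospholipase (PLDB1) assays are copied below. They were not matched to any transcript or probe set here. The primers stand 5′ to 3′ in lower case with no part set in capitals.
PCK-fw: ctcagagggaatttgaggtttcc
PCK-rev: gtgtctcagtacttgttcagctg
NR-fw: gtacgagctatcgatgagaccc
NR-rev: attggtttccaggttgggtc
PLDB1-fw: tcctgatattttgggaatagc
PLDB1-rev: cagcacattcttaccacacacta

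**Figure D2:**
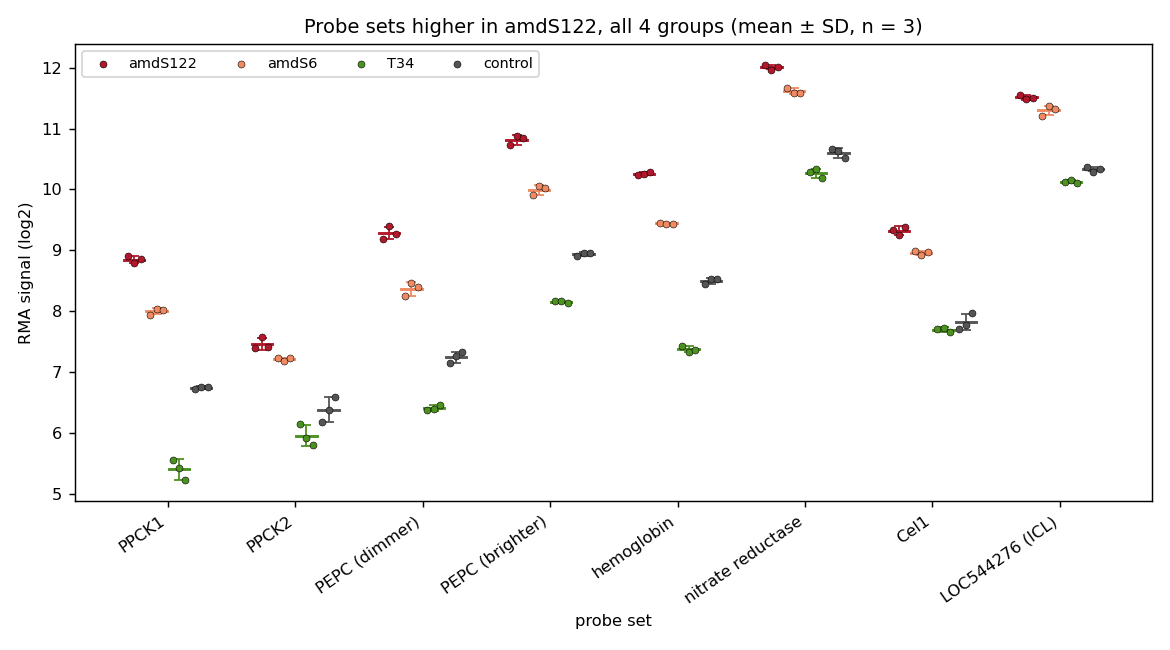
RMA signals (log2) of 8 probe sets called higher in amdS122 than in control, with a point for each array and the mean ± SD (n = 3) in amdS122, amdS6, T34 and control plants. In all 8 the amdS122 arrays lie above the control arrays, from 8.79 to 8.90 for PPCK1 in amdS122 against 6.72 to 6.76 in control.

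Other single genes called higher were Cel1, ICL, LE16, T6 and neryl diphosphate synthase 1. Cel1, an endo-1,4-β-glucanase that cuts cell wall glucans, had 9.34, 9.25 and 9.39 in amdS122 plants, against 7.71, 7.77 and 7.97 in control plants. This was a 2.84-fold rise (log2 1.51, adjusted p = 3.4e-09), and Cel1 was the only one called of 21 probe sets for cellulases, galactosidases, pectin enzymes and cellulose synthases. LOC544276, listed under the synonym ICL (isocitrate lyase, the glyoxylate cycle enzyme), had 11.56, 11.48 and 11.50 in amdS122 plants, against 10.37, 10.29 and 10.34 in control plants, a 2.26-fold rise. LE16, a lipid transfer protein known from drought and abscisic acid treatment, rose 2.13-fold, but only by 0.86 on the log2 scale with the 3′ to 5′ covariate.

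T6 (LeT6, TKn2), a class I knotted homeobox gene of the shoot meristem and of leaf dissection, gave 6.90, 7.06 and 7.12 in amdS122 plants, against 5.93, 5.84 and 6.08 in control plants. It was called at 2.11-fold (adjusted p = 7.9e-07) and was at a log2 change of 0.74 with the covariate. The other knotted genes KN1, TKN3 and KN4 were at 0.22, 0.22 and 0.11 and WUS at −0.16. The 5 shoot meristem markers had a median signal of 4.70 in amdS122 and 4.48 in control plants, which lay at background. Only T6 among them remained when the lowest 30% of signals were left out, so a change in the others may not show. Neryl diphosphate synthase 1, which makes the precursor of trichome monoterpenes, had 6.81, 6.56 and 7.07 in amdS122 plants, against 5.63, 6.00 and 5.67 in control plants. Its 2.06-fold rise (adjusted p = 4.3e-05) was not called under 4 alternatives: the log2 change was 0.87 with array weights, 0.91 without amdS122 replicate 3, 0.97 without control replicate 1 and 0.99 without control replicate 3. MTS1, the trichome monoterpene synthase, was at −0.17 and did not pass the test. Its means of 4.35 in amdS122 and 4.52 in control plants lay at background. Reporter probe sets without a tomato target averaged up to 5.15 and 5.27 in these groups, so a change in MTS1 may not show.

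Of the 44 probe sets called higher, 31 have neither a symbol nor a description here. Those with a symbol but no known role were LOC778326, at 3.06-fold (9.76, 9.72 and 9.70 in amdS122, against 8.13, 8.20 and 8.01 in control plants), and LOC778362, at 2.34-fold. A further probe set for LOC778362 was higher by 1.40-fold only, and the first was at a log2 change of 0.58 with the covariate. Just outside the limit were the cathepsin D inhibitor (1.99-fold), the ribonuclease RNALE (1.95-fold) and the subtilase SBT1 (1.90-fold), which passed the adjusted p.

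The called falls included calcium-binding proteins, receptors, transcription factors and defense proteins. Many of these names come from the tables of the study, which were drawn up from these same arrays, so their counts are no independent evidence of direction. A fold is limited from below by the background of the array. The 63 reporter probe sets, which have no tomato target, averaged 3.49 to 5.15 in amdS122 arrays, and 29 of the 171 probe sets called lower had amdS122 means within that range. Their folds are read as lower bounds, and among the genes given here they were those of both calcium-binding proteins, PTI5, Ve1 and AOS, with Eix1 and LOC543701 just above it. The first calcium-binding protein had 4.68, 4.94 and 4.90 in amdS122 plants, against 8.82, 8.88 and 8.83 in control plants. This was 16.0-fold lower (log2 −4.00, SE 0.06, adjusted p = 1.2e-12). Another calcium-binding protein was 9.36-fold lower (4.64, 4.44 and 4.47 in amdS122, against 7.80, 7.88 and 7.54 in control plants). The 5 probe sets that the tables class under binding were lower by 4.44- to 16.0-fold.

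NtEIG-E80, named after an early elicitor-induced gene of tobacco, was 14.4-fold lower (6.33, 6.32 and 6.46 in amdS122, against 10.26, 10.17 and 10.24 in control plants; adjusted p = 3.4e-13). HSR203J, in tobacco a marker of the hypersensitive response, was 13.3-fold lower (8.04, 7.80 and 7.81 in amdS122, against 11.66, 11.67 and 11.52 in control plants). A miraculin protein, of the Kunitz inhibitor family, was 11.8-fold lower (6.13, 6.44 and 6.10 in amdS122, against 9.76, 9.77 and 9.81 in control plants). In each of these the arrays of the groups were separated by more than 3 log2 units. The 10 probe sets classed under defense fell by 2.79- to 14.4-fold, with a median of 5.30-fold.

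**Figure D3:**
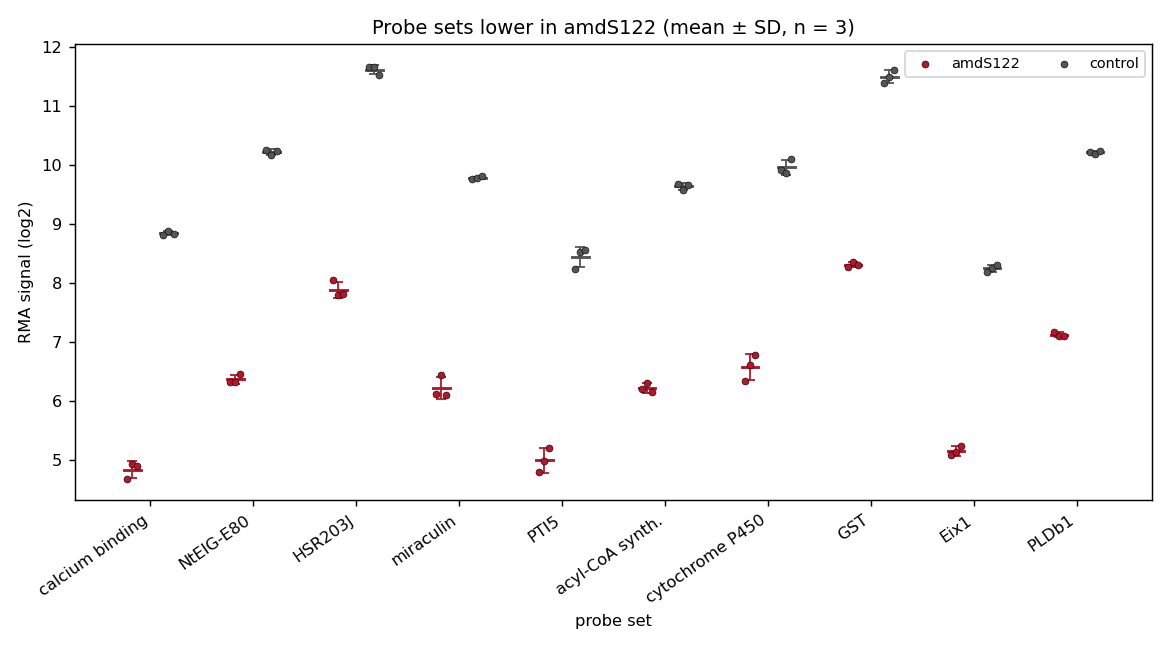
RMA signals (log2) of 10 of the probe sets that fell most, with a point for each array and the mean ± SD (n = 3) in amdS122 and control plants. The amdS122 arrays lie below the control arrays in all 10, for instance at 4.68 to 4.94 for the calcium-binding protein in amdS122 against 8.82 to 8.88 in control.

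Of 6 probe sets with a symbol for resistance genes, receptors and salicylic acid signalling, 5 were called lower and 0 higher. This stood beside 1.70% and 0.438% of all probe sets, and the list median log2 change was −2.095. Eix1, Ve1, Asc-1 and pip1 also stand in the study's tables, which were chosen on these arrays, so the count is no independent evidence of direction. Eix1, a receptor-like protein for fungal xylanase, had 5.08, 5.14 and 5.24 in amdS122 plants, against 8.18, 8.26 and 8.31 in control plants, which was 8.54-fold lower (adjusted p = 9.3e-11). Ve1, a receptor-like protein for race 1 Verticillium, had 5.02, 5.04 and 4.94 in amdS122 plants, against 7.39, 7.78 and 7.67 in control plants (6.11-fold lower). Its neighbour in the same family, Ve2, was at −1.24, Asc-1, the Alternaria toxin resistance gene, at −2.16 and pip1, a papain-like protease of the apoplast, at −2.03. NPR1, the salicylic acid receptor and coactivator, was at 0.09 and did not pass. The 4 receptors known only by the tables were lower by 2.55- to 12.3-fold.

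Kinases and NADPH oxidases fell in part. Of 16 probe sets with a symbol, 3 were called lower, beside 1.70% of all probe sets. A total of 10 passed the adjusted p downwards and 4 upwards, beside 22.0% and 30% of all probe sets. The list median was −0.30. MPK3, the mitogen-activated kinase of wound and elicitor responses, has 3 probe sets that fell by 1.62, 1.43 and 0.65 on the log2 scale; the first had 6.93, 6.94 and 6.97 in amdS122 plants, against 8.62, 8.52 and 8.56 in control plants. The third reads the low end of the scale, with a mean of 4.58 in amdS122 and 5.23 in control plants. Wfi1, an NADPH oxidase, was 2.47-fold lower, while RBOH1, the other oxidase, was at 0.05. MEK1 and MKK3 were at −0.78 and −0.61 without a call, and MKK4 and SOS2 at 0.30 and 0.32.

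Several transcription factors of stress responses were called lower. PTI5, an ethylene response factor that binds the Pto kinase, had 4.80, 4.99 and 5.21 in amdS122 plants, against 8.24, 8.53 and 8.56 in control plants, a 10.9-fold fall (adjusted p = 1.2e-09). ER24 (MBF1), a coactivator, was 4.02-fold lower (7.02, 7.06 and 7.02 in amdS122, against 9.10, 9.01 and 9.00 in control plants). Among 7 WRKY probe sets 2 were called lower and 5 passed the adjusted p downwards, beside 1.70% and 22.0% of all probe sets. LOC543855 (WRKYIId-2) was at −2.26, WRKYIId-4 at −1.50 and WRKYIId-1 at −0.90. The NAC factor NAC1 fell by 2.78 on the log2 scale. The study's tables class 15 probe sets under transcription and translation, lower by 3.40- to 10.9-fold.

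Ethylene genes did not move as a block. Of 29 probe sets for perception and response factors 3 were called lower and 0 higher, beside 1.70% and 0.438% of all probe sets. At the adjusted p alone, 13 passed downwards and 6 upwards, beside 22.0% and 30% of all probe sets. The list median was −0.06. ERF4 and LOC606712 (TERF1), both response factors, passed upwards at 0.63 and 0.79 without a call (LOC606712 was called at 1.08 with the covariate), whereas the receptor ETR4 was at −0.66. ERF3 was called lower on 1 probe set (−1.05, and −0.99 without amdS122 replicate 3) and was at 0.11 on the other, whose signals were near the floor. In synthesis, 1 of 15 probe sets with a symbol was called, beside 2.14% of all probe sets. It was ACS1A, an ACC synthase, at −1.09. ACO4 was at −0.63, and an ACC oxidase homolog of the tables was 5.20-fold lower, with 9.44, 9.40 and 9.47 in amdS122 plants, against 11.83, 11.85 and 11.76 in control plants.

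Jasmonate synthesis split. AOS, the allene oxide synthase that commits the pathway to jasmonate, had 5.06, 5.26 and 4.76 in amdS122 plants, against 6.35, 6.49 and 6.52 in control plants, and was the only called probe set of 14 (log2 −1.43, adjusted p = 4.8e-07). AOC, the next enzyme, was higher by 0.49, the lipoxygenase loxC of volatile synthesis by 0.90 and the hydroperoxide lyase HPL, which uses the same substrate as AOS, by 0.52. These 3 passed the adjusted p without a call, and loxC was at 1.23 and called with the covariate. Wound and anti-herbivore proteins held 0 calls among 13 probe sets with a symbol, with 5 past the adjusted p downwards and 1 upwards. The shares over all probe sets were 22.0% downwards and 30% upwards.

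Pathogenesis-related proteins were mixed. PR-5, a thaumatin-like protein, had 6.40, 6.80 and 6.67 in amdS122 plants, against 8.07, 8.20 and 8.34 in control plants (2.99-fold lower, adjusted p = 2.7e-07), and was the only call among 16 probe sets with a symbol. A total of 7 passed the adjusted p downwards and 5 upwards, beside 22.0% and 30% of all probe sets. The upward ones included PR-P2 (PR-4) at 0.84 and the chitinase CHI3 at 0.51, and the downward ones the basic glucanase GluB at −0.37. The tables add 2 acidic endochitinases, 4.01- and 3.39-fold lower.

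Among enzymes of detoxification and lipid metabolism, several members of the study's tables, chosen on these arrays, were called lower. A cytochrome P450 monooxygenase was 10.4-fold lower, with 6.35, 6.61 and 6.79 in amdS122 plants, against 9.91, 9.87 and 10.10 in control plants. A glutathione S-transferase was 9.11-fold lower, with 8.27, 8.36 and 8.31 in amdS122 plants, against 11.39, 11.49 and 11.61 in control plants. With a symbol, 1 of 5 members of this list was called (ctu1, a tau class transferase, −1.47), 2 members for the brassinosteroid oxidase CYP85A1 were at 0.54 (called at 1.29 with the covariate) and 0.35, and the list median was −0.60. PLDb1, a phospholipase D, had 7.17, 7.10 and 7.11 in amdS122 plants, against 10.21, 10.19 and 10.24 in control plants (8.49-fold lower, adjusted p = 1.5e-12). An acyl-CoA synthetase was 10.7-fold lower (6.20, 6.31 and 6.15 in amdS122, against 9.69, 9.57 and 9.66 in control plants).

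The list for sugar metabolism and transport contained 2 called falls among 21 probe sets, beside 1.70% of all probe sets. HT2, a hexose transporter, had 7.58, 7.74 and 7.56 in amdS122 plants, against 10.27, 10.24 and 10.31 in control plants, and was 6.26-fold lower. The cell wall invertase Wiv-1 (LIN6), which splits sucrose outside the cell, was 3.80-fold lower (6.82, 6.79 and 6.78 in amdS122, against 8.66, 8.79 and 8.72 in control plants). HT1 was at −0.65 without a call, and SPS, a sucrose phosphate synthase, at 0.44. The glucosyltransferase twi1, which acts in wound and salicylate responses, was 4.08-fold lower. A phosphoglycerate mutase was 9.79-fold lower.

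Cell wall remodelling genes went both ways. Of 28 probe sets for xyloglucan endotransglucosylases and expansins, 3 were called lower, beside 1.70% of all probe sets. In this list 13 passed the adjusted p upwards and 9 downwards, beside 30% and 22.0% of all probe sets. tXET-B2 and XTH3 were lower by 4.23- and 4.02-fold, and LOC543916 (XTH9) by 2.06-fold. XTH5 and the expansin EXP5 were higher by 1.53- and 1.65-fold and passed the adjusted p. In the phenylpropanoid branch a tyramine hydroxycinnamoyl transferase was 4.39-fold lower (6.20, 6.08 and 6.23 in amdS122, against 8.32, 8.28 and 8.31 in control plants), whereas CHS1 and DFR, enzymes of flavonoid synthesis, were at 0.76 and 0.79 without a call.

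Auxin and gibberellin probe sets leaned upwards: 11 of 22 passed the adjusted p upwards (beside 30% of all probe sets) and 3 downwards. IAA7 and GA20OX1, a gibberellin 20-oxidase, were at 0.70 and 0.69. The only one called was LOC543701, an auxin response protein by the tables. It had 4.94, 5.41 and 5.18 in amdS122 plants, against 7.99, 8.01 and 8.15 in control plants (7.32-fold lower). Another auxin response protein, known only by the tables, was called lower too (log2 −1.61). LEA14 fell 2.85-fold and HSP17.4 2.89-fold. None of the 7 heat shock probe sets with a symbol was positive in the fit used here. Of these, 6 passed the adjusted p downwards, beside 22.0% of all probe sets.

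Cyclins and cyclin-dependent kinases had no call against control. Of 12 probe sets for cyclins and cyclin-dependent kinases 8 passed the adjusted p downwards and 1 upwards. This stood beside 22.0% and 30% of all probe sets. In this list 0 were called, and the median was −0.40. CDKB2, a mitotic kinase, had 7.34, 7.44 and 7.30 in amdS122 plants, against 8.10, 8.25 and 8.31 in control plants (1.81-fold lower), and CycA1 was 1.80-fold lower. With the covariate CDKB2 was at −1.04 and was called. Of 3 probe sets for histones and DNA replication 0 were called and 1 passed the adjusted p, downwards, with a median of −0.09. The 7 ribosomal protein probe sets with a symbol all passed the adjusted p downwards, from −0.18 to −0.32, which stood beside 22.0% over all probe sets. Of 9 photosynthesis probe sets 0 passed, and the members spanned −0.01 to 0.06. Their signals lay between percentiles 99.4 and 99.9 of the array, where the highest mean was 14.72, so that a change may not show there.

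The same probe sets can be read in the other groups, whose changes share the control arrays. The 44 probe sets called higher in amdS122 had a median log2 change of 0.76 in amdS6 and −0.11 in T34 plants against control. The 171 called lower had medians of −1.39 in amdS6 and 0.01 in T34 plants. By array, the median signal of the 171 was 6.34 to 6.40 in amdS122, 6.62 to 6.75 in amdS6, 8.48 to 8.56 in T34 and 8.53 to 8.59 in control plants. The amdS122 and amdS6 arrays lay low, and those of T34 lay with the control arrays. The 171 were chosen by the amdS122 and control arrays, so the places of amdS122 and control were fixed by that choice.

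**Figure D4:**
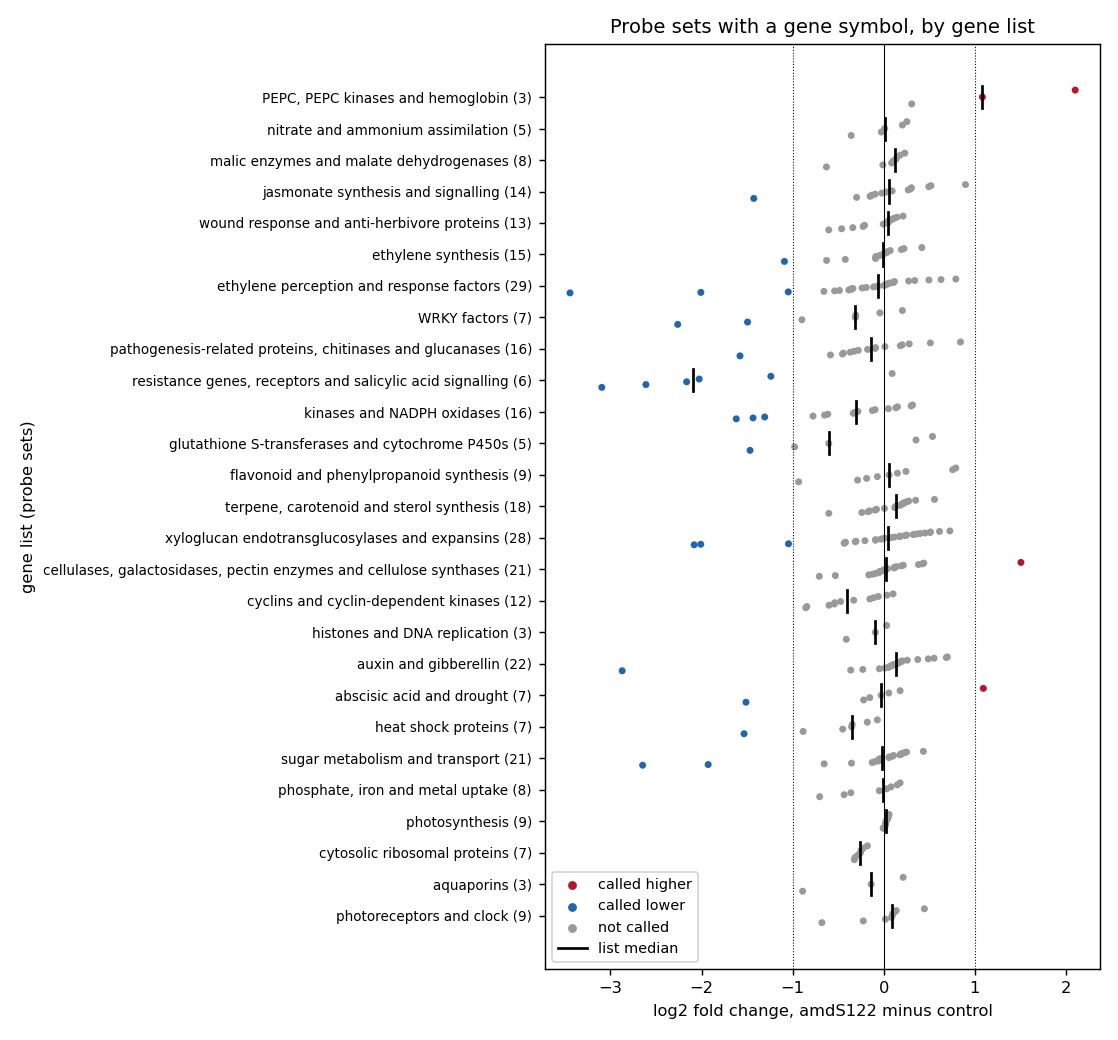
Log2 fold changes (amdS122 minus control) of the probe sets with a gene symbol, 1 point per probe set in each list, with the list median as a bar and dotted lines at a 2-fold change. Resistance genes and receptors have a median of −2.095, while photosynthesis spans −0.01 to 0.06.

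The transformants were compared directly to ask where amdS122 plants differ from amdS6 plants. This contrast uses the means of these groups, with the spread estimated over all 12 arrays. Called were 72 probe sets (0.717%), of which 6 were higher (0.0598%) and 66 lower (0.658%). Without the fold limit 38.2% passed, 19.4% higher and 18.7% lower. With arrays scaled on the hybridisation spikes the median of all probe sets moved to −0.26 and the counts were 2 higher and 159 lower. Of the 66 lower ones 14 were also among the 171 that fell against control. Poly-A spikes averaged 8.14 ± 0.04 in amdS122 and 7.56 ± 0.17 in amdS6 arrays (SD). The 3′ to 5′ difference averaged 2.85 ± 0.13 and 3.06 ± 0.06. The part of either measure in this contrast was not tested.

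PPCK1, PEPC, the hemoglobin and nitrate reductase were higher in amdS122 than in amdS6 by less than 2-fold. PPCK1 had 7.94, 8.04 and 8.02 in amdS6 plants, so amdS122 was 1.80-fold higher (adjusted p = 3.8e-06), and amdS122 exceeded amdS6 by 1.89- and 1.76-fold for the 2 PEPC probe sets and by 1.76-fold for the hemoglobin. Nitrate reductase differed by 1.32-fold (adjusted p = 0.00015), Cel1 by 1.29-fold and PPCK2 by 1.19-fold (adjusted p = 0.087). None of these was called, and every amdS122 array lay above every amdS6 array for PPCK1, PEPC, the hemoglobin and nitrate reductase. Of the 44 probe sets called higher against control, 40 were also higher than in amdS6 at the adjusted p and 1 was lower. They were chosen by the amdS122 signal, so this count is a description. Of the 171 called lower, 105 were lower than in amdS6 and 11 higher, with a median difference of −0.31.

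Of 16 pathogenesis-related probe sets with a symbol, 12 were higher in amdS122 than in amdS6 at the adjusted p and 2 lower. This stood beside 19.4% and 18.7% of all probe sets. In this list 3 were called higher and 0 lower, and the median difference was 0.67. GluB, the basic β-1,3-glucanase, had 10.08, 9.97 and 10.05 in amdS122 plants, against 8.28, 8.32 and 8.40 in amdS6 plants, a 3.25-fold difference (95% interval 1.59 to 1.81 on the log2 scale, adjusted p = 1.1e-09). Against the shared control arrays GluB was 1.29-fold lower in amdS122 and 4.19-fold lower in amdS6 plants. P4, of the PR-1 family, was higher by 2.28-fold and PR-P2 by 2.15-fold, and GluB, P4 and PR-P2 were the 3 called. With the spike scaling GluB remained called at 1.42, and P4 and PR-P2 were at 0.91 and 0.83. DFR was higher by 2.43-fold, with a log2 difference of 1.01 under the spike scaling. The ribonuclease RNALE was higher by 2.02-fold, and was not called under the spike scaling (0.74), with the 3′ to 5′ covariate or without amdS122 replicate 2.

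A proteinase inhibitor, CDKB2, CycA1 and AOS were lower in amdS122 than in amdS6. Of 13 wound response probe sets 4 were called lower, beside 0.658% of all probe sets. LOC543954 (PIIF, a wound-inducible proteinase inhibitor) had 7.11, 7.05 and 7.26 in amdS122 plants, against 8.89, 8.91 and 8.95 in amdS6 plants (3.43-fold lower, adjusted p = 2.6e-08). CDKB2 had 8.95, 8.85 and 8.88 in amdS6 plants and CycA1 8.53, 8.67 and 8.57, which left amdS122 lower by 2.89- and 2.59-fold. For CDKB2, CycA1 and PDH (3.56-fold lower than in amdS6) amdS122 was below control and amdS6 above it, with log2 changes against the shared controls of −0.86 and 0.68 for CDKB2 and −0.84 and 0.53 for CycA1. PDH was 2.30-fold lower in amdS122 and 1.55-fold higher in amdS6 plants, and its call in amdS122 was lost with the covariate (−0.87). Of the 12 division probe sets 8 passed the adjusted p downwards against amdS6 and 0 upwards, beside 18.7% and 19.4% of all probe sets. AOS was 2.33-fold lower, the miraculin protein 2.20-fold lower and LOC543701 2.85-fold lower. Neryl diphosphate synthase 1 was 1.59-fold lower without a call.

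**Figure D5:**
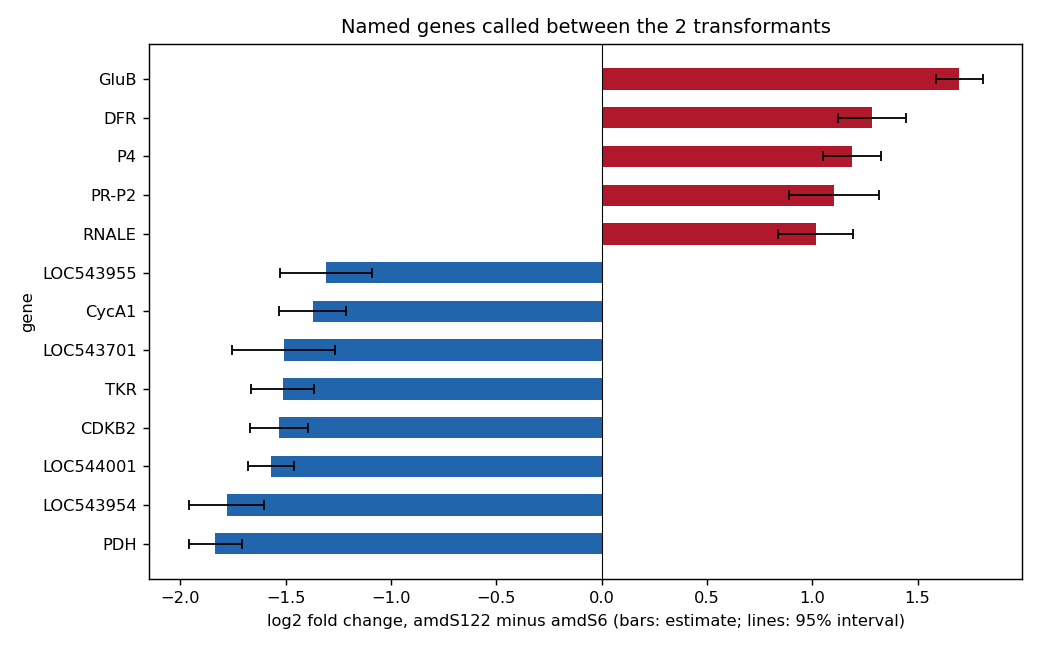
Log2 fold changes (amdS122 minus amdS6) of the named genes with the largest called differences in each direction, as bars with the 95% interval from limma. GluB is highest at 1.70, and PDH is lowest at −1.83.

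Against the parent strain T34, 245 probe sets were called (2.44%), with 52 higher (0.518%) and 193 lower (1.92%). Without the fold limit 48.9% passed, 28.2% higher and 20.7% lower. PPCK1 had 5.56, 5.43 and 5.22 in T34 plants, so amdS122 was 10.9-fold higher (adjusted p = 5.0e-12), and the hemoglobin was 7.36-fold higher. The 2 PEPC probe sets were higher by 7.35- and 6.33-fold, nitrate reductase by 3.35-fold and Cel1 by 3.09-fold. Of the 44 probe sets called higher against control 32 were called against T34 too, and of the 171 called lower 153 were, a description, since these probe sets were chosen by the amdS122 arrays. Neryl diphosphate synthase 1 did not separate these groups: amdS122 was 1.19-fold lower than T34 (adjusted p = 0.15). The 4 root markers all passed the adjusted p downwards against T34, with 3 called lower and a median of −1.07, and their part in these counts was not tested.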

How the data were processed

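RNA from aerial parts was amplified with a whole transcriptome kit, labelled with biotin and hybridised to the Affymetrix Tomato Genome Array. What the authors deposited were log2 signals from RMA (background correction, quantile normalization, median polish) in Expression Console, with versions not given in the sources used here. They were used as deposited. Quantile normalization forces equal distributions, so that a general shift in signal would not be seen. Array medians lay between 7.80 and 7.87. Precision is limited by there being 3 arrays a group.

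A single limma model (version 3.58.1, R 4.3.3) with a mean for each group took in all 12 arrays. Benjamini-Hochberg adjustment ran over the 10038 tomato probe sets. Intervals are at 95%. Control and reporter probe sets (108 and 63) were left out of tests. In simulated data for amdS122 versus control, run on 10038 probe sets, 48 of 50 changes of 2.5-fold, 50 of 50 of 4-fold and 0 of 50 of 1.5-fold were called, with 0 calls among unchanged probe sets. Changes of 1.5-fold lie under the fold limit, so their count does not measure power. The simulated noise was independent between probe sets and held no shift between arrays, so these counts may not carry over to the real arrays.

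The array annotation gives 1 symbol for 909 probe sets, several for 0 and none for 9129, and 885 matched RefSeq by gene ID. Other names come from the descriptions in the study's tables, 98 probe sets. The naming rule took PPCK1, PEPC, nitrate reductase, the hemoglobin, neryl diphosphate synthase and the genes tested by PCR. It also took the other probe sets of the study's table for T34 against control, and of the upregulated part of its table for both transformants. It added the 20 largest named calls per direction without overlap of arrays, in each list the 4 lowest adjusted p and the 2 largest changes per direction, the 8 largest named differences from amdS6 per direction, and genes near the fold limit. GLB2, GS2, PSBO, LOC543978, RBOH1, MEK1, MKK3, ETR4, Ve2, Asc-1, pip1, NAC1, ctu1 and second probe sets of a gene fall outside it and were chosen after their values were seen. Members and lists were chosen with earlier results of these data known. Alternatives are given in the closing section.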

Additional observations from a re-analysis of the deposited data

Results flagged for a closer look

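Differences between strains were tested as contrasts of the same fit, and these passed in genes that moved apart from control in different ways or degrees. In amdS122 minus amdS6 the log2 differences were 1.70 for GluB, 1.28 for DFR, 1.19 for P4, 1.10 for PR-P2 and 1.02 for RNALE. On the lower side they were −1.83 for PDH, −1.78 for LOC543954, −1.57 for LOC544001, −1.53 for CDKB2, −1.51 for TKR, −1.51 for LOC543701, −1.37 for CycA1 and −1.31 for LOC543955. In amdS122 minus T34 they were 3.44 for PPCK1, 2.88 for the non-symbiotic hemoglobin and −2.71 for a probe set that has no name here.

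Poly-A spike probe sets, which no comparison uses, were higher by 0.446 on the log2 scale in amdS122 than in control arrays.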

How the results depend on the processing

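Alternatives were a replicate block, the 6 arrays alone, median centring, a further quantile normalization, scaling on 9 hybridisation spikes, the 3′ to 5′ difference as covariate, leaving out the lowest 30% of signals, a variance trend, array weights, an adjusted p under 0.05, other fold limits, linear means, a moderated F test and leaving out each array. Only the fold limit moved the 215 calls against control by over 1.5 times: 5224 without a limit, 720 at 1.5-fold and 92 at 3-fold. List members called (56) went likewise to 242, 89 and 33. The 72 calls against amdS6 became 3831, 320 and 11, and 161 with spike scaling. The 245 calls against T34 became 4907, 685 and 106. Leaving out 1 array gave 209 to 239 calls against control, 71 to 78 against amdS6, 239 to 260 against T34 and 55 to 58 list members. The 3′ to 5′ difference (−0.52) lay between −0.59 and −0.47. LOC544102, just inside the limit, turned to 0.34 with the covariate. Of 70 named calls 61 held under every alternative run for them, which leaves out the fold limits, the stricter p and the F test. Correlations of deviations between amdS122 and control arrays were 0.33, −0.03 and 0.32 for like replicate numbers 1 to 3. For unlike numbers they ran from −0.41 to 0.13, so numbers 1 and 3 may be paired in part. With the replicate block 216 probe sets were called, 215 of them shared, with no named call changed. Promoter motifs were not run, because promoters were not used here.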
